A study of Mus musculus with 6 samples.

Results

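The subject is a set of 45 mouse genes for molecular chaperones, heat shock proteins and folding factors of the endoplasmic reticulum (ER), out of 48526 gene identifiers counted in the series. They were chosen by name, at a time when earlier results of these data were known, and all 45 were matched by symbol to 1 Ensembl identifier each. By the place or pathway that their products serve, 15 were cytosolic or nuclear, 8 were subunits of the cytosolic chaperonin, 7 were mitochondrial and 15 belonged to the ER. Xbp1, the gene of a transcription factor, was placed with the ER for its role in the unfolded protein response. Total RNA of mouse KP cells was sequenced in 6 libraries. In the doxycycline group, 3 stable lines (N3, N4 and N5, here lines 3, 4 and 5) were grown with 100 ng/ml doxycycline, which switches on a hairpin RNA against Npm1, the gene of the nucleolar protein nucleophosmin. In the group without doxycycline, the same 3 lines were left untreated. All 6 libraries came from cells that carried a pLKO.1-Tet on vector with the hairpin shNpm1-3, shNpm1-4 or shNpm1-5 and had been selected with 2 ug/ml puromycin. The labels call the cells KP without naming a tissue, and state neither the time in doxycycline nor whether a line grew from 1 clone or from many cells. Each line had a hairpin of its own and 1 library per condition, so the lines stood in for replicates. The p-values measure the difference against the spread between lines, as estimated for each gene with information shared across all genes tested. No library had doxycycline without a hairpin against Npm1, so the drug and the knockdown cannot be told apart, and neither can a batch that followed the treatment.

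Chaperones bind proteins that are not yet folded or have lost their fold, and most use ATP to hold and release them. In the cytosol, HSP70 proteins work with J-domain proteins and hand clients on to HSP90 or to the ring-shaped chaperonin, and the transcription factor HSF1 switches on many of their genes by binding heat shock elements. In the ER, the HSP70 protein BiP, the lectins calreticulin and calnexin and the protein disulfide isomerases fold secreted and membrane proteins, and the unfolded protein response raises their genes through ATF6 and XBP1, which act at ER stress elements. Mitochondria have an HSP70, a chaperonin with its co-chaperonin, and proteases of their own.

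The promoter windows of the members held the letters of these elements in a few cases. RefSeq windows on GRCm38.p6 (the mm10 build), from 250 bases before to 50 after a start site, were found for 37 of the 45 members. Each motif was searched on both strands. The ER stress element (CCAAT, any 9 bases, then CCACG) was found in 6 members (Hspa5, Hsp90b1, Dnajc3, Calr, Canx and Pdia6) and in 0.137% of 27025 genes with windows of this length. The shorter ER stress element II (ATTGG, any 1 base, then CCACG) was found in Dnajb11 and Herpud1 and in 0.0444% of all genes. These 8 genes were all ER members, of which 13 had a window, and no window held both motifs. The heat shock element (GAA, TTC and GAA, with any 2 bases between neighbours) was found in Hsph1, Hspd1 and Hspe1 and in 0.662% of all genes. The letters TGACGTGG, an element of the unfolded protein response, were in no member's window and in 0.714% of all genes. A match is a description of the letters only. The motifs were those already known for genes of this kind, as described above. The shares over all genes are therefore no test of the members. The windows of Hspa5 and Herpud1 are shown because these genes varied most between the treated lines among the ER members, and that of Hspe1 because it is shared with its neighbour Hspd1, which differed from it in level. The positions are chr2:34771840-34772139 (plus strand), chr8:94386179-94386478 (plus strand) and chr1:55087898-55088197 (plus strand), and capitals mark the matched motif, with the pair of overlapping heat shock elements of Hspe1 as 1 stretch.
Hspa5: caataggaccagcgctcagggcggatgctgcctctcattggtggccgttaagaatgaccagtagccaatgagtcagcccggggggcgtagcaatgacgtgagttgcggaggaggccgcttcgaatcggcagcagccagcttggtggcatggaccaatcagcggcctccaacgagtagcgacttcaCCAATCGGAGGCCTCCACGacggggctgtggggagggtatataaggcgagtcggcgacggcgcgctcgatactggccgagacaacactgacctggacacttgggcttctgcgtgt
Herpud1: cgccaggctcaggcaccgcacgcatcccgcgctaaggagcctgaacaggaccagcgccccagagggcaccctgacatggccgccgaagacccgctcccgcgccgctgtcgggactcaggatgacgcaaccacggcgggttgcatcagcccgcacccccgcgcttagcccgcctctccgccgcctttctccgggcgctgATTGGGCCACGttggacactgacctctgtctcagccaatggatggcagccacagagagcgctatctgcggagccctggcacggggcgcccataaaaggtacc
Hspe1: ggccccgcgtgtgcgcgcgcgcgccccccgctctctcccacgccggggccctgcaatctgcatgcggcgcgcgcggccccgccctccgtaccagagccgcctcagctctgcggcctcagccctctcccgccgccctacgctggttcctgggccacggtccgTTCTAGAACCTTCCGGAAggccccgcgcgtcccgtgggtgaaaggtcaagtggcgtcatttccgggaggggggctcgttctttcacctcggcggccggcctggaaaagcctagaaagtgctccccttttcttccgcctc

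The matches in the other ER members and in Hsph1 are shown to compare their variable bases, read 5′ to 3′ along the strand of the motif, with its fixed letters in capitals. They lie at chr10:86705638-86705656 and chr10:86705533-86705551 for Hsp90b1, at chr14:118937827-118937845 for Dnajc3, at chr8:84847075-84847093 for Calr, at chr11:50325800-50325818 for Canx, at chr12:17266491-17266509 for Pdia6, at chr16:22857852-22857862 for Dnajb11 and at chr5:149636288-149636300 for Hsph1. The Hsp90b1 (first) and Canx matches are on the minus strand of the genome and the others on the plus strand.
Hsp90b1 (first): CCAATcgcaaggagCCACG
Hsp90b1 (second): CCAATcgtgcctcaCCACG
Dnajc3: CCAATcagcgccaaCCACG
Calr: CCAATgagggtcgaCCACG
Canx: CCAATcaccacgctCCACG
Pdia6: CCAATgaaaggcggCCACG
Dnajb11: ATTGGcCCACG
Hsph1: GAActTTCcaGAA

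Each library gave between 24391198 and 27341036 counts in genes. Levels are in CPM, counts per 1000000 after scaling between libraries by TMM (the trimmed mean of M-values). Npm1 itself was at 67.8, 245 and 399.7 CPM with doxycycline in lines 3, 4 and 5, against 2002, 1851 and 1924 CPM without it (log2 fold change -3.02 with an SE of 0.49, edgeR adjusted p = 0.0110). The treated library of line 3 stood apart. Counts for reads aligned to more than 1 place made up 37.8% of all its counts, those for no gene included. In the other 5 libraries they made up 31.4% to 34.6%. Without the treated library of line 3, 1551 genes were called in place of 332. Epithelial markers (Epcam, Cdh1, Krt8, Krt18, Krt19 and Cldn4) summed to 8898 to 10606 CPM with doxycycline and 10121 to 12107 CPM without it. All 6 had log2 fold changes below 0, and 1, Cldn4, fell (log2 fold change -1.23 with an SE of 0.25, edgeR adjusted p = 0.0325). Of 18 tested macrophage markers 15 rose (edgeR adjusted p under 0.05), with sums over 20 markers of 377 to 549 CPM with doxycycline and 399.7 to 460.1 CPM without it. The largest share of these sums came from Mrc1, which was not among the 15, so the sums do not show the rise of the 15. Mrc1 was at 159.9, 228 and 381 CPM with doxycycline in lines 3, 4 and 5, against 414, 386 and 349 CPM without it. Marco was at 0 counts in 5 of the 6 libraries. Of 15 tested T and NK lymphocyte markers 13 fell, with sums over 16 markers of 4.82 to 7.23 CPM with doxycycline and 24.99 to 32.7 CPM without it. Of the 16, 7 or 8 had 0 counts in each treated library, Cd3d, Cd8b1, Nkg7 and Gzma in all 3. B lymphocyte markers summed to 0.462 to 0.995 CPM with doxycycline and 0.549 to 0.845 CPM without it, and Blk was at 0 counts in every library. The part of such cells in the levels of the members was not tested, and in bulk RNA fewer cells of a type and less RNA per cell cannot be told apart.

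None of the tested members passed the test of doxycycline against none. Of the 45 members 44 passed the filter on low counts, and 0 of the 44 had an adjusted p under 0.05 (edgeR quasi-likelihood test, Benjamini-Hochberg over 14531 genes), where 2.28% of all genes tested were called, 0.963% higher and 1.32% lower. At an unadjusted p under 0.05 there were 6 members, Ahsa1, Hspe1, Hspa13 and Sdf2l1 with the higher level and Xbp1 and Hsp90b1 with the lower level with doxycycline, which is 13.6% of the members against 16.3% of all genes. edgeR with the line as a replicate block called 0 members and 1.67% of all genes, and DESeq2 and limma-voom also called 0 members. The median log2 fold change was 0.03 over the members and 0.00 over all genes. The groups did not overlap for 14 of the 44 members, 8 higher and 6 lower, or 31.8%, against 22.6% of all genes tested, 11.3% higher and 11.2% lower. The 95% intervals of 41 of the 44 lay within a 2-fold change in either direction and those of 31 within a 1.5-fold change. The intervals that reached past 2-fold were those of Hspa1a, Hspa1b and Hspb1.

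**Figure D1:**
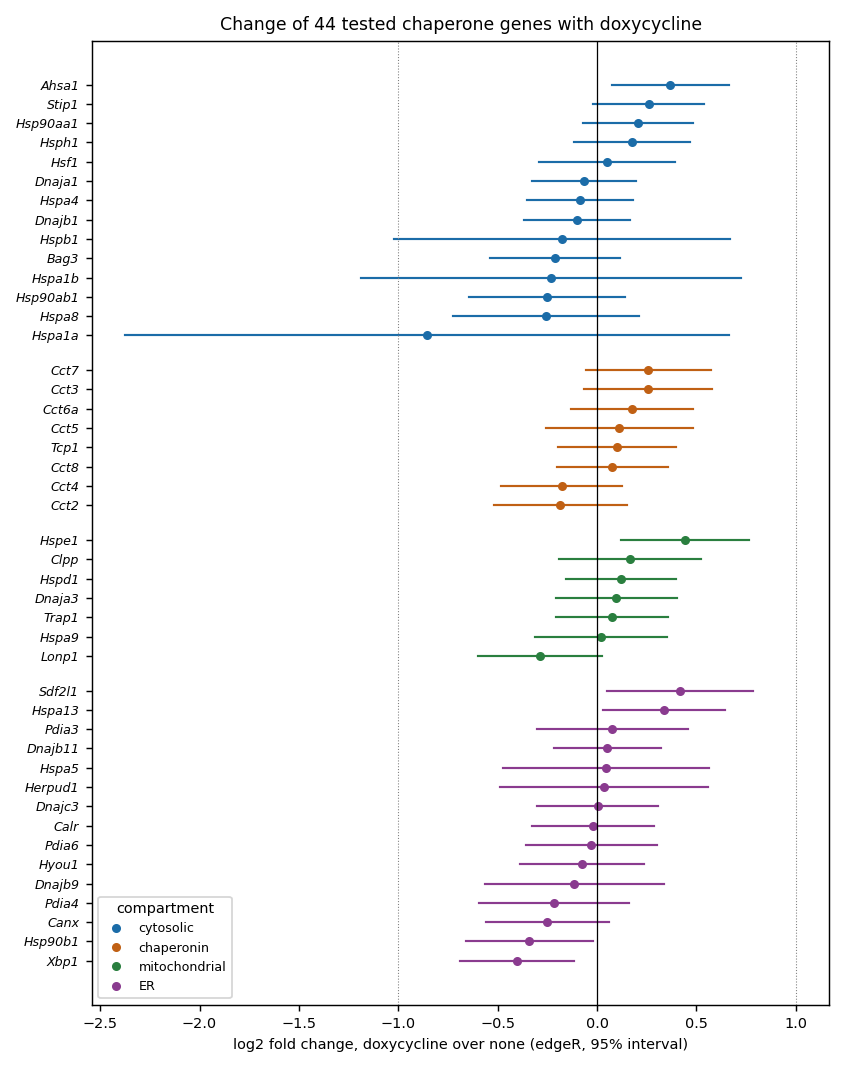
Log2 fold change of each tested member, doxycycline over none, with its 95% interval from the edgeR fit over 6 libraries, grouped by compartment; dotted lines mark a 2-fold change. All points but that of Hspa1a lie between -0.40 and 0.44, and 41 of 44 intervals lie between the dotted lines.

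Among the cytosolic members, none of the 14 tested passed, and the median log2 fold change was -0.09, with 5 above 0 and 9 below. The heat shock factor gene Hsf1 was at 20.4, 19.0 and 19.3 CPM with doxycycline in lines 3, 4 and 5, against 15.8, 19.3 and 21.5 CPM without it, and the groups overlapped. The stress-inducible HSP70 genes had low counts. Hspa1b had 96, 80 and 26 counts with doxycycline and 74, 77 and 91 without it, and Hspa1a had 11, 7 and 1 with and 5, 15 and 15 without. The transcripts of this pair were 99.2% identical over 2201 aligned bases, so reads from the shared stretches fit both places and their counts are uncertain. Hspb8, a small heat shock protein that works with Bag3, had 6, 2 and 1 counts with doxycycline and 1, 1 and 3 without, and was not tested. Hspb1, the small heat shock protein HSP25 of the mouse, was at 10.3, 5.29 and 2.79 CPM with doxycycline in lines 3, 4 and 5, against 7.47, 7.29 and 5.95 CPM without it. The groups overlapped, with treated line 3 highest and treated line 5 lowest of the 6 libraries. Hspb1 has 2 near-identical copies in the annotation, the longest over 477 aligned bases, which can lower its counts.

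The constitutive HSP70 gene Hspa8 was at 2710.0, 1548 and 2086 CPM with doxycycline in lines 3, 4 and 5, against 2594, 2457 and 2532 CPM without it (log2 fold change -0.26 with an SE of 0.21, edgeR adjusted p = 0.604). Treated lines 4 and 5 were below all untreated libraries and treated line 3 above them. Without the treated library of line 3, Hspa8 was called lower, with a log2 fold change of -0.47 (edgeR adjusted p = 0.0446), in a fit that called 10.4% of all genes. Hspa8 had 8 near-identical copies in the annotation, 7 of them pseudogenes. Reads that also fit a copy were counted for no gene, which can lower the level of Hspa8. Hspa4 and Hsph1, HSP110 proteins that exchange the nucleotide of HSP70, had log2 fold changes of -0.09 (SE 0.12) and 0.18 (SE 0.13). Hspa4 was at 315, 289 and 306 CPM with doxycycline in lines 3, 4 and 5, against 319.6, 329 and 317 CPM without it, so that every treated library was below every untreated one by a small margin. The J-domain genes Dnaja1 and Dnajb1 and the HSP70 exchange factor Bag3 had negative log2 fold changes that did not pass, -0.07 for Dnaja1, -0.10 for Dnajb1 and -0.21 for Bag3 (edgeR adjusted p = 0.841, 0.735 and 0.527). Bag3 was at 16.8, 18.3 and 16.1 CPM with doxycycline in lines 3, 4 and 5, against 18.3, 22.5 and 18.6 CPM without it, and the groups did not overlap. With the length and GC offsets the log2 fold change of Bag3 was -0.082. Dnaja1 has 3 near-identical pseudogenes in the annotation, which can lower its counts.

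In the HSP90 system, the cytosolic HSP90 genes stood on opposite sides of 0. Hsp90ab1, the constitutive form, was at 5316, 4662 and 4802 CPM with doxycycline in lines 3, 4 and 5, against 5826, 5907 and 5857 CPM without it. All 3 treated libraries were below all 3 untreated ones, but the difference did not pass (log2 fold change -0.25 with an SE of 0.18, edgeR adjusted p = 0.535). Hsp90aa1, the stress-inducible form, was at 468, 468 and 484 CPM with doxycycline in lines 3, 4 and 5, against 414, 425 and 391 CPM without it. Here the treated libraries were all above the untreated ones (log2 fold change 0.21 with an SE of 0.12, edgeR adjusted p = 0.452). Hsp90aa1 has 3 pseudogenes with near-identical sequence, and reads that also fit these were counted for no gene. The ratio of Hsp90aa1 to Hsp90ab1 counts within a library, chosen after the values had been seen, was 8.81%, 10.04% and 10.07% with doxycycline in lines 3, 4 and 5, against 7.11%, 7.19% and 6.67% without it, and needs no scaling between libraries. Stip1, which links HSP70 and HSP90, was at 522, 503 and 545 CPM with doxycycline in lines 3, 4 and 5, against 440.1, 426 and 446 CPM without it (log2 fold change 0.26 with an SE of 0.13, edgeR adjusted p = 0.345). Ahsa1, which speeds up the ATPase of HSP90, was at 178, 142 and 177 CPM with doxycycline in lines 3, 4 and 5, against 133, 118 and 134 CPM without it (log2 fold change 0.37 with an SE of 0.13, edgeR adjusted p = 0.203). For both, every treated library was above every untreated one. The ratio within each line was similar in size, with log2 ratios of 0.25, 0.24 and 0.29 for Stip1 and 0.42, 0.27 and 0.40 for Ahsa1 in lines 3, 4 and 5.

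The chaperonin (TRiC or CCT) is a double ring of 8 different subunits that folds actin, tubulin and other proteins. None of the 8 passed, and all 8 intervals lay within a 1.5-fold change. The log2 fold changes ran from -0.18 for Cct2 to 0.26 for Cct7, with a median of 0.11, and 6 were above 0. With offsets for transcript length and GC content the median was 0.036, and Cct8, at -0.042, left 5 above 0. Cct7 was at 1209.7, 1121 and 1064 CPM with doxycycline in lines 3, 4 and 5, against 950.3, 913 and 975 CPM without it (log2 fold change 0.26 with an SE of 0.14, edgeR adjusted p = 0.408). Cct3 was at 1140.1, 982 and 1019 CPM with doxycycline in lines 3, 4 and 5, against 919, 819.8 and 889 CPM without it (log2 fold change 0.26 with an SE of 0.14, edgeR adjusted p = 0.420). In both genes the treated libraries were all above the untreated ones, as they were in Tcp1 and Cct6a. Cct6a was at 807, 755 and 754 CPM with doxycycline in lines 3, 4 and 5, against 736, 628 and 684 CPM without it (log2 fold change 0.18 with an SE of 0.14, edgeR adjusted p = 0.581). Cct5, the subunit gene with the highest level, was at 2798, 2368 and 2493 CPM with doxycycline in lines 3, 4 and 5, against 2546, 2164 and 2380.5 CPM without it (log2 fold change 0.11 with an SE of 0.17, edgeR adjusted p = 0.801), and its groups overlapped. Cct4 was the exception among the subunits without overlap, at 842, 797 and 829.9 CPM with doxycycline in lines 3, 4 and 5, against 972, 896 and 927 CPM without it (log2 fold change -0.18 with an SE of 0.14, edgeR adjusted p = 0.570), with every treated library below every untreated one. Groups did not overlap for 5 of the 8 subunits, 4 higher and 1 lower, against 22.6% of all genes. Cct2 was at 608, 572 and 451 CPM with doxycycline in lines 3, 4 and 5, against 599, 629.8 and 625 CPM without it, where treated line 5 lay furthest below the untreated libraries and treated line 3 among them. Per kilobase of the longest annotated transcript, 7 subunit genes lay between 202 (Cct8) and 331 (Cct4) CPM per kilobase with doxycycline and between 191 (Cct8) and 375 (Cct4) without it. Cct5 stood apart from them at 1378 ± 119 CPM per kilobase with doxycycline and 1276 ± 103 without it (SD, n = 3 each). Exonic bases of Tcp1 and Cct6a overlap other annotated genes at 16.9% and 15.3%.

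None of the 7 mitochondrial members passed. Their median log2 fold change was 0.10, with 6 above 0. Hspe1, the co-chaperonin HSP10, was at 441, 338 and 400.3 CPM with doxycycline in lines 3, 4 and 5, against 303, 259.7 and 305 CPM without it. Each treated library was above each untreated one (log2 fold change 0.44 with an SE of 0.15, edgeR adjusted p = 0.164, 95% interval 0.12 to 0.77). With the length and GC offsets the log2 fold change of Hspe1 was 0.24. The matching chaperonin HSP60, Hspd1, shares its start region and its heat shock elements with Hspe1. On mm10, Hspd1 lies at chr1:55077835-55088243 on the minus strand and Hspe1 head to head with it at chr1:55088132-55091307 on the plus strand. Hspd1 was at 218, 208 and 221 CPM with doxycycline in lines 3, 4 and 5, against 176, 214 and 204 CPM without it (log2 fold change 0.12 with an SE of 0.12, edgeR adjusted p = 0.694), so the groups overlapped. The ratio of Hspe1 to Hspd1 counts within a library was 2.03, 1.62 and 1.81 with doxycycline and 1.72, 1.21 and 1.49 without it in lines 3, 4 and 5. It was higher with doxycycline in each line, although the groups overlapped. Hspd1 has a near-identical pseudogene, and Hspe1 a near-identical annotated copy over 208 bases. The mitochondrial HSP70 Hspa9 was at 450.4, 327 and 399 CPM with doxycycline in lines 3, 4 and 5, against 359, 404 and 399 CPM without it (log2 fold change 0.02 with an SE of 0.15, edgeR adjusted p = 0.968). Treated lines 3 and 4 lay on either side of the untreated libraries. The protease Lonp1 was at 132, 124 and 117 CPM with doxycycline in lines 3, 4 and 5, against 126, 172 and 157 CPM without it (log2 fold change -0.29 with an SE of 0.14, edgeR adjusted p = 0.351), and the protease subunit Clpp at 103, 65.7 and 81.7 CPM with doxycycline in lines 3, 4 and 5, against 72.1, 73.1 and 77.8 CPM without it (log2 fold change 0.17 with an SE of 0.16, edgeR adjusted p = 0.671). The groups overlapped for each of these proteases. With the length and GC offsets the log2 fold change of Lonp1 was -0.056. That of Clpp was -0.0072 without the treated library of line 3. Trap1, the mitochondrial HSP90, and the J-domain gene Dnaja3 had log2 fold changes of 0.07 (SE 0.13) and 0.10 (SE 0.14).

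**Figure D2:**
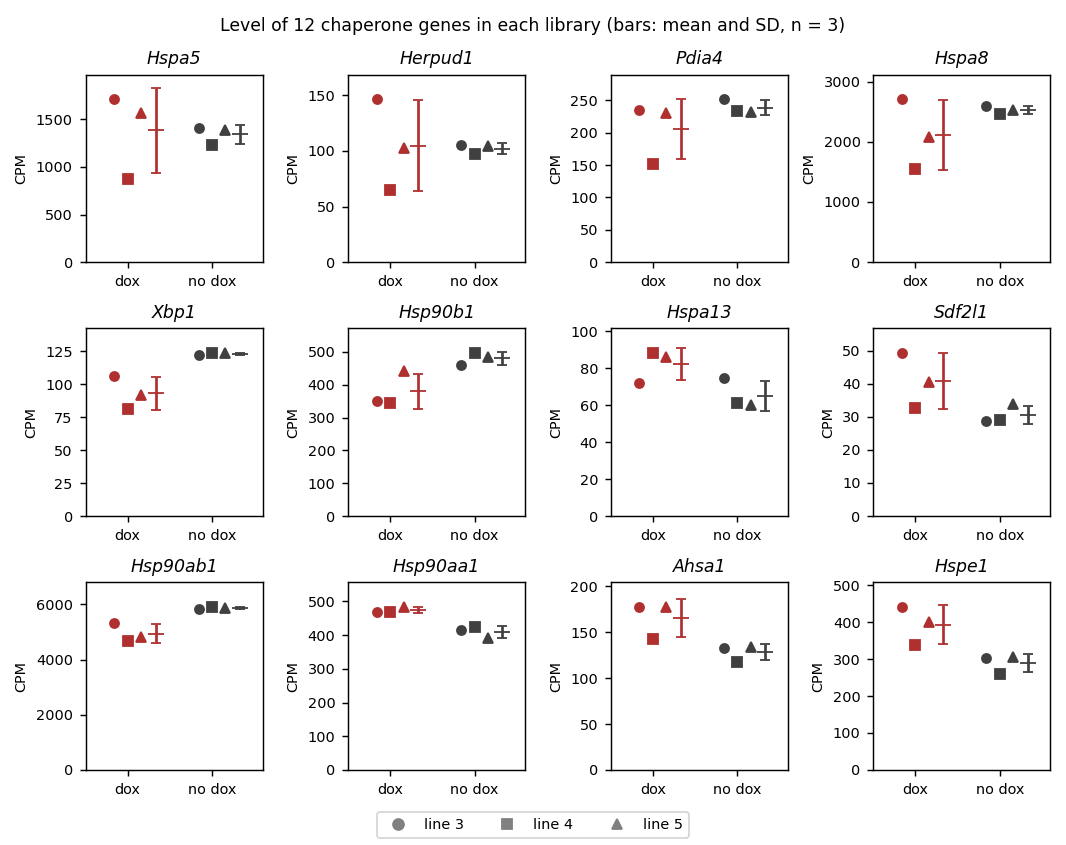
CPM of 12 members in each library, with doxycycline (left, red) and without it (right, grey); symbols are lines and bars the mean and SD (n = 3). For Hspa5, Herpud1, Pdia4, Hspa8, Xbp1, Hsp90b1 and Hsp90ab1 the treated library of line 4 is the lowest of the 6, and the untreated libraries lie close together.

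The ER members had a median log2 fold change of -0.02, and none of the 15 passed. Xbp1, whose messenger RNA is spliced by the ER stress sensor IRE1 to give the active factor, had the smallest p of all members. It was at 106, 81.4 and 91.6 CPM with doxycycline in lines 3, 4 and 5, against 122, 123 and 124 CPM without it. The 3 untreated libraries were almost equal and every treated one was below them (log2 fold change -0.40 with an SE of 0.13, edgeR adjusted p = 0.154, 95% interval -0.69 to -0.12). Counts per gene do not separate the spliced form from the unspliced one. Without the treated library of line 3, Xbp1 was called lower, with a log2 fold change of -0.51 (edgeR adjusted p = 0.0193). Hsp90b1, the ER form of HSP90 (GRP94), was at 352, 345 and 442 CPM with doxycycline in lines 3, 4 and 5, against 460.1, 497 and 485 CPM without it (log2 fold change -0.34 with an SE of 0.14, edgeR adjusted p = 0.276), also with every treated library below every untreated one. Its exonic bases overlap other annotated genes at 15.7%.

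Sdf2l1, which works with BiP and its J-domain partners, was at 49.3, 32.6 and 40.6 CPM with doxycycline in lines 3, 4 and 5, against 28.8, 29.2 and 33.8 CPM without it (log2 fold change 0.42 with an SE of 0.17, edgeR adjusted p = 0.248). The treated library of line 3 was the highest, while that of line 4 lay below the untreated library of line 5. Hspa13, an HSP70 of microsomes, was at 72.1, 88.2 and 86.2 CPM with doxycycline in lines 3, 4 and 5, against 74.5, 60.9 and 59.9 CPM without it (log2 fold change 0.34 with an SE of 0.14, edgeR adjusted p = 0.263). It was higher with doxycycline in lines 4 and 5 and not in line 3. Without both libraries of line 3 it was called, with a log2 fold change of 0.54 (edgeR adjusted p = 0.0435), in a fit that called 4.5% of all genes.

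Hspa5, the gene of BiP, was at 1714, 878 and 1569.7 CPM with doxycycline in lines 3, 4 and 5, against 1409, 1230.2 and 1392 CPM without it (log2 fold change 0.05 with an SE of 0.23, edgeR adjusted p = 0.953). Treated lines 3 and 5 were above all untreated libraries and treated line 4 below all of them. Herpud1, a membrane protein of ER-associated degradation, was at 147, 65.0 and 102 CPM with doxycycline in lines 3, 4 and 5, against 105, 96.8 and 104 CPM without it (log2 fold change 0.04 with an SE of 0.24, edgeR adjusted p = 0.963). It had the same order of treated lines, with line 3 highest and line 4 lowest. The disulfide isomerase Pdia3 was at 1384, 971 and 1207 CPM with doxycycline in lines 3, 4 and 5, against 1218, 1046 and 1114 CPM without it (log2 fold change 0.08 with an SE of 0.17, edgeR adjusted p = 0.879), and Pdia4 at 235, 152 and 230.1 CPM with doxycycline in lines 3, 4 and 5, against 252, 233 and 231 CPM without it (log2 fold change -0.22 with an SE of 0.17, edgeR adjusted p = 0.583), and both were lowest in treated line 4. Pdia6 and Hyou1, an HSP110 of the ER, had log2 fold changes of -0.03 (SE 0.15) and -0.07 (SE 0.14). Of the lectin genes, Canx (calnexin) was at 297, 224 and 249 CPM with doxycycline in lines 3, 4 and 5, against 311, 314 and 289 CPM without it (log2 fold change -0.25 with an SE of 0.14, edgeR adjusted p = 0.417), and Calr (calreticulin) was at 560.5, 611 and 665 CPM with doxycycline in lines 3, 4 and 5, against 659.7, 587 and 615 CPM without it (log2 fold change -0.02 with an SE of 0.14, edgeR adjusted p = 0.966). Canx was lowest in treated line 4 and Calr in treated line 3. The J-domain genes Dnajb9, Dnajb11 and Dnajc3 had log2 fold changes of -0.11, 0.05 and 0.00 (SE 0.20, 0.12 and 0.14).

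Set out by line, most of the ER members were lowest in 1 treated library, that of line 4. The log2 ratio of CPM with doxycycline to CPM without it, after adding 0.5 to each, was lowest of the 3 lines in line 4 for 13 of the 15 ER members, or 86.7%, against 33.1% of all genes tested. The treated library of line 4 was the lowest of all 6 libraries for 11 of the 15 ER members, or 73.3%, against 21.7% of all genes. The medians over the ER members were 0.02, -0.29 and 0.08 in lines 3, 4 and 5, where those over all genes tested were 0.00, -0.01 and 0.00. The 8 ER members with an ER stress element ranged widely in line 4: Hspa5, Hsp90b1, Canx and Herpud1 had log2 ratios of -0.49, -0.53, -0.49 and -0.57, while Dnajc3, Pdia6, Dnajb11 and Calr had -0.21, -0.24, 0.01 and 0.06. The 7 ER members without such a match in the window, or with no window, also ranged widely. Their log2 ratios in line 4 were -0.61 (Pdia4), -0.60 (Xbp1), -0.37 (Hyou1), -0.29 (Dnajb9), -0.11 (Pdia3), 0.16 (Sdf2l1) and 0.53 (Hspa13). Pdia4, Dnajb9, Pdia3 and Sdf2l1 were among those with a window. Only exact letters in short windows were searched, and whether the element goes with the level in line 4 was not tested. Summed over the 15 ER members, the level was 5556, 3929.8 and 5314 CPM with doxycycline in lines 3, 4 and 5, against 5263, 4788 and 5049.6 CPM without it. Hspa5 and Pdia3 had the highest CPM of its members. The mitochondrial members had medians of 0.33, -0.15 and 0.11 in lines 3, 4 and 5, with line 4 lowest for 6 of 7. The cytosolic members had medians of 0.12, -0.18 and -0.13, with line 4 lowest for 8 of 14. The chaperonin subunits had 0.12, 0.13 and 0.09, with line 4 lowest for 0 of 8. With 1 library per line and condition, a difference in response between lines could not be tested. The pattern of low values in line 4, noticed after the values had been seen, rests on the treated library of line 4.

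**Figure D3:**
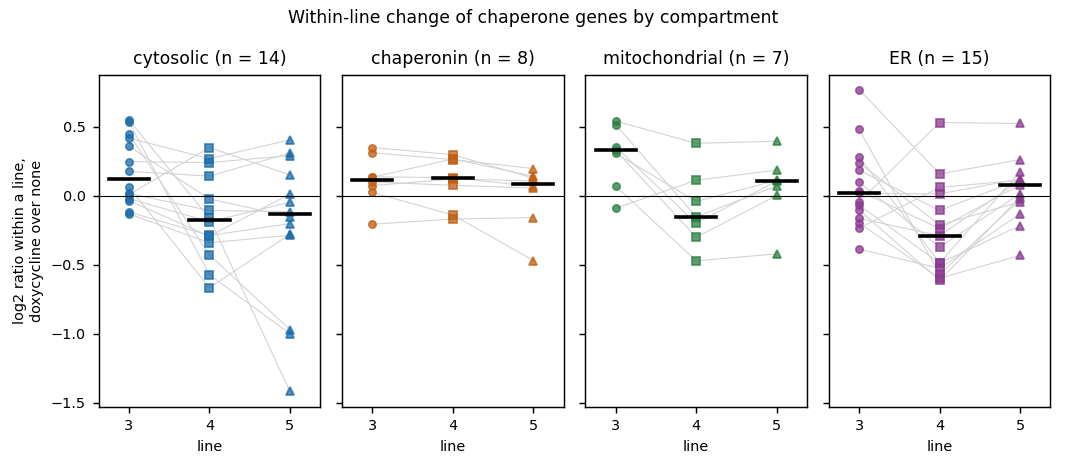
Log2 ratio of CPM with doxycycline to CPM without it within lines 3, 4 and 5 for each tested member, by compartment; grey lines join the values of 1 gene and black bars are medians. The ER and mitochondrial medians of line 4 are -0.29 and -0.15, below those of lines 3 and 5, while the chaperonin medians lie between 0.09 and 0.13 in the 3 lines.

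No member was called in a test between the lines. In a model with doxycycline and line, the F test of the line terms called 0 of 44 members and 0 of 14531 genes, so the background was 0%, and the lowest edgeR adjusted p was 0.868. At an unadjusted p under 0.05 there were 2 members, Dnajb9 and Hspb1, or 4.55%, against 4.59% of all genes. Dnajb9 was at 60.6, 37.8 and 50.2 CPM with doxycycline in lines 3, 4 and 5, against 68.0, 46.4 and 46.4 CPM without it, with line 3 highest in both groups. The F test asks for differences between lines that both conditions share, and was not a test of the pattern in the treated library of line 4. It called no gene at all, so it does not show that the lines are alike. No other tool was run for this test.

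Ordered by level per kilobase of transcript, the most abundant member was Hsp90ab1, at 1955 CPM per kilobase with doxycycline and 2327 without it. Cct5 came next, at 1378 CPM per kilobase with doxycycline and 1276 without it, followed by Hspa8, at 669.6 CPM per kilobase with doxycycline and 800.4 without it, and Pdia3, at 429 CPM per kilobase with doxycycline and 406 without it. The ranges of mean ± SD did not overlap between Hsp90ab1 and Cct5 or between Cct5 and Hspa8 in either group (n = 3 each). With doxycycline the next in order were Hspe1, Hspa5 and Cct4, and without it Cct4, Hspa5 and Cct2, which lay between 315 and 408 CPM per kilobase. The ranges of mean ± SD of Pdia3 and Hspa5 overlapped in each group. The least abundant were Hspa1b, Hspa1a and Hspb8, at 0.955 CPM per kilobase with doxycycline and 1.11 without it, 0.0869 CPM per kilobase with doxycycline and 0.152 without it and 0.0696 CPM per kilobase with doxycycline and 0.0354 without it. The longest annotated transcript need not be the one expressed, which affects these levels but not the differences between libraries. Reads that fit both a member and a near-identical copy were counted for no gene. The levels of Hspa1a, Hspa1b, Hspa8 and other members with such copies can therefore be too low.

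**Figure D4:**
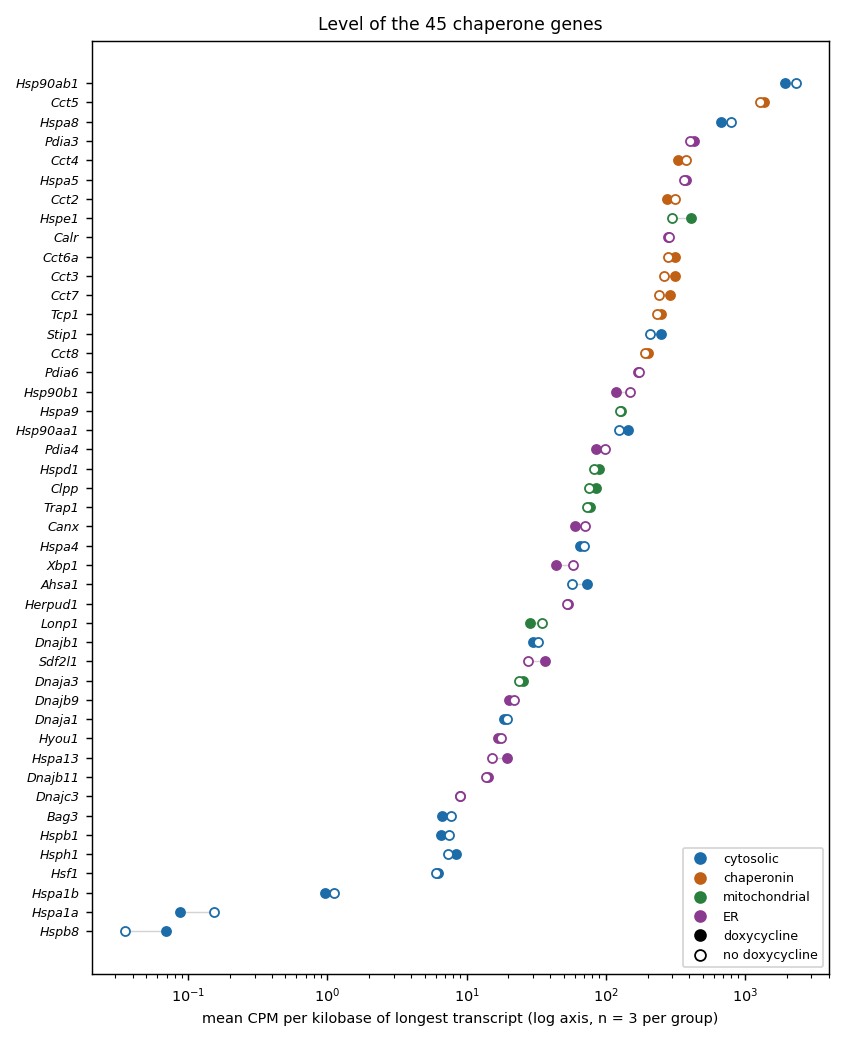
Mean CPM per kilobase of the longest annotated transcript for the 45 members on a log axis, with doxycycline (filled) and without it (open), n = 3 each. Levels span from 1955 (Hsp90ab1) to 0.0696 (Hspb8) CPM per kilobase with doxycycline, and filled and open circles of a gene lie close together except for Hspa1a and Hspb8.

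The wider folding machinery was described by 3 lists of genes that were not members. Of 40 further cytosolic co-chaperones and prefoldin subunits, 39 were tested, and 1 was called higher and 1 lower, where 2.28% of all genes tested were called. At an unadjusted p under 0.05 there were 3 higher and 3 lower, against 16.3% of all genes, and the median log2 fold change was 0.09. Vbp1, a subunit of prefoldin, which delivers unfolded actin and tubulin to the chaperonin, rose to 234, 287 and 252 CPM with doxycycline in lines 3, 4 and 5, against 183, 153 and 163 CPM without it (log2 fold change 0.63 with an SE of 0.13, edgeR adjusted p = 0.0399, 0.0775 with the line as a block). Dnaja4, a J-domain protein, fell to 1.83, 1.49 and 1.49 CPM with doxycycline, against 3.62, 3.64 and 3.26 CPM without it (log2 fold change -1.13 with an SE of 0.25, edgeR adjusted p = 0.0479, 0.10 with the line as a block). The prefoldin subunit Pfdn4 was next in p, at 58.6 ± 2.86 CPM with doxycycline and 40.7 ± 2.73 CPM without it (SD, n = 3 each, edgeR adjusted p = 0.0516). Of 14 further mitochondrial chaperones and proteases, 0 were called and 1 had an unadjusted p under 0.05 (2.28% and 16.3% of all genes), with a median of 0.05. Prohibitin (Phb) was at 218, 170.2 and 175 CPM with doxycycline in lines 3, 4 and 5, against 142, 121 and 135 CPM without it, with all treated libraries above all untreated ones (log2 fold change 0.50 with an SE of 0.14, edgeR adjusted p = 0.105). Grpel1, the nucleotide exchange factor of mitochondrial HSP70, and Dnajc15 were next in p, at 251 ± 51.2 CPM with doxycycline and 201 ± 15.0 CPM without it (SD, n = 3 each) for Grpel1 and 27.3 ± 0.221 CPM with doxycycline and 23.3 ± 1.86 CPM without it (SD, n = 3 each) for Dnajc15 (edgeR adjusted p = 0.358 and 0.424). Of 38 further genes of ER folding, ER-associated degradation and stress sensing, 0 were called and 2 had an unadjusted p under 0.05 (again against 2.28% and 16.3% of all genes), with a median of -0.02. These were Pdia5, at 13.7 ± 4.30 CPM with doxycycline and 8.81 ± 0.722 CPM without it (SD, n = 3 each), and the ubiquitin ligase gene Syvn1, at 24.1 ± 1.99 CPM with doxycycline and 31.2 ± 4.84 CPM without it (SD, n = 3 each, edgeR adjusted p = 0.220 and 0.259). Next in p was Serpinh1, the collagen chaperone HSP47, at 336, 271 and 360.2 CPM with doxycycline in lines 3, 4 and 5, against 401, 391 and 402 CPM without it (log2 fold change -0.31 with an SE of 0.14, edgeR adjusted p = 0.322). The median of this list in line 4 was -0.19, against 0.05 and -0.03 in lines 3 and 5.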

How the data were processed

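RNA of 3 mouse KP lines with and without doxycycline was analysed, 1 library each. The authors deposited raw counts of reads for each gene. Tools named in the submitters' processing notes include STAR and HTSeq, with mm10 as the build. No annotation release or strand setting is given in those sources, so reads of genes that overlap on opposite strands cannot be told apart. The 5 rows that name no gene, 43.8% to 47.7% of all counts, were left out. Most of these counts were for reads that align to more than 1 place, which are counted for no gene. This can lower the counts of members with near-identical copies. Such copies (at least 95% identity over 200 bases, blastn 2.17.0) were found for 8 members.

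edgeR 4.0.16 (under R 4.3.3) compared doxycycline with none by its quasi-likelihood F test after filterByExpr and TMM, with Benjamini-Hochberg adjustment and a biological coefficient of variation of 18.0%. At depths of 24391198 to 27341036 counts, a floor of 3 counts is 0.0991 to 0.137 CPM and covers counting error only. Each SE was taken as the absolute log2 fold change over the root of its F statistic, and 95% intervals use the t distribution of the fit. Symbols, positions and lengths came from GENCODE M21 on the same build, which named 48058 of 48526 identifiers, and promoter windows from RefSeq. The numbers pair the samples because both libraries of a number are the same stable line. Deviations from the group means correlated with r = 0.00, 0.07 and 0.03 within lines 3, 4 and 5 and -0.10 to 0.07 between lines, so the pairing rests on the labels. The fit without the block was the main one. Replicates were not duplicates of each other (chi-square per degree of freedom of 7.86 to 108).

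Members and lists were chosen with earlier results of these data known. Named with full values were, in each compartment, the 4 members of smallest p and the 2 of highest CPM, any that passed, and in each wider list those that passed and the 3 of smallest p. Other members with values per library were chosen after their values had been seen. Alternatives were RLE scaling, no filter, the block, DESeq2 1.42.0, limma-voom (limma 3.58.1), each library and each line left out, offsets for transcript length and GC content with and without the block, an adjusted p under 0.1, and a fit without macrophage and lymphocyte markers. After the data were seen, RLE, no scaling factor, the offsets and an added value of 2 CPM were tried on the count of ER members lowest in line 4. The procedures were tested on simulated data.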

Additional observations from a re-analysis of the deposited data

How the results depend on the processing

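No member was called under RLE scaling, without the filter, with the replicate block, by DESeq2 or limma-voom, with the length and GC offsets (with or without the block), or at an adjusted p under 0.1. The same held without the macrophage and lymphocyte markers, a fit that leaves the counts of the members as they are. With 1 library or line left out, 0 to 2 members were called (Hspa8 and Xbp1 without the treated library of line 3, Hspa13 without line 3) and 62 to 1551 genes in all. Over all genes the count was 332, and it was 1052 without the filter, 705 with DESeq2 and 243 with the replicate block. The block changed no call of a member, and ended those of Vbp1 and Dnaja4. Of 748 log2 fold changes of members under 17 alternatives, 695 kept their direction and their side of the threshold, 3 passed it and 50, of 17 members, changed sign, all of them uncalled. The other 27 members kept their direction throughout.

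Medians of log2 fold changes with a library or line left out ran from -0.14 to 0.014 for the cytosolic members, 0.071 to 0.14 for the chaperonin subunits, -0.029 to 0.20 for the mitochondrial members and -0.13 to 0.078 for the ER members, so that only the chaperonin median kept its sign. With the offsets the chaperonin median was 0.036 and 0.036 with the block, and the ER median was 0.014. Members whose sign depended on a library or line ranged over -0.086 to 0.16 (Hsf1), -0.82 to 0.25 (Hspa1b), -0.76 to 0.17 (Hspb1), -0.14 to 0.16 (Hspa9), -0.029 to 0.31 (Clpp), -0.034 to 0.23 (Dnaja3), -0.00050 to 0.16 (Trap1), -0.13 to 0.29 (Hspa5), -0.28 to 0.091 (Dnajb9), -0.0057 to 0.089 (Dnajb11), -0.12 to 0.10 (Dnajc3), -0.10 to 0.093 (Calr), -0.042 to 0.20 (Pdia3), -0.10 to 0.10 (Pdia6), -0.16 to 0.057 (Hyou1), -0.28 to 0.29 (Herpud1). Signs also changed for Dnajc3 without the filter (-0.0089), with the block for Hspa5 (-0.0092), Dnajc3 (-0.0065) and Herpud1 (-0.039), and in limma-voom for Dnajc3 (-0.011) and Herpud1 (-0.043). With the offsets they did for Cct8 (-0.042), Hspa9 (-0.022) and Hyou1 (0.077), and with offsets and block for Cct8 (-0.043), Hspa9 (-0.033), Hspa5 (-0.023), Dnajc3 (-0.0092), Hyou1 (0.059) and Herpud1 (-0.027). The log2 fold changes of Hspe1, Lonp1 and Bag3 were also over 1.5 times smaller with the offsets (0.24, -0.056 and -0.082). The cause was not tested. Of the 15 ER members, 10 to 13 were lowest in line 4 under the added scalings. With 3 libraries a group and a spread between lines, small changes of single members could have been missed, and the 95% intervals give their limit.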

Other observations

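The median coefficient of variation over the 44 tested members was 11.9% with doxycycline and 4.63% without it, and it was larger with doxycycline for 34 of them, or 77.3%. Over all genes tested the medians were 18.8% with doxycycline and 10.1% without it, and 74.4% of genes had the larger value with doxycycline. By compartment, the medians were 15.7% with doxycycline and 4.75% without it for the ER members, 13.2% and 6.40% for the mitochondrial members, 9.08% and 3.85% for the cytosolic members, and 5.35% and 3.69% for the chaperonin subunits, in the same order of groups.

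Ratios between members within a library, chosen after their values had been seen, need no scaling between libraries. Herpud1 counts were 8.56%, 7.41% and 6.53% of Hspa5 counts with doxycycline in lines 3, 4 and 5, against 7.46%, 7.87% and 7.51% without it. Hsp90b1 counts were 20.5%, 39.3% and 28.2% of Hspa5 counts with doxycycline, against 32.7%, 40.4% and 34.8% without it. This ratio was lower with doxycycline in each line, by little in line 4, and the groups overlapped.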
